A study of Sus scrofa with 20 samples.

Results

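The transcripts of 9 transcription factors of the hepatocyte were followed in pig cells: HNF4A, NR5A2, NR1H4, NR1I3, FOXA1, FOXA2, FOXA3, CEBPA and CREB3L3. They were taken by gene name from the 25764 genes of the deposited expression table, each name had 1 row, and all 9 passed the filter on low values. The table holds 20 poly(A) RNA-seq libraries. Of these, 5 are porcine biliary tree stem cells (pBTSCs), each from 1 neonatal piglet, and 15 are sorted pig liver cells. The pBTSCs came from the gallbladder by their labels, and the methods name the extrahepatic biliary tree more widely. They were selected with antibodies and formed organoids with mesenchymal partner cells in serum-free Kubota's medium before RNA was taken. H2B-GFP piglets 1, 2 and 3 (libraries S2, S7 and S11) carried a histone H2B-eGFP reporter knocked into the ACTB locus, which is active in nearly every cell, and were 1, 1 and 2 days old. Wild-type piglets 1 and 2 (S15 and S20) had no reporter and were 1 day old. The piglet line is known only from a supplementary list of the study that carries the same library names. The liver groups were sorted by surface antigens into CD45-/EpCAM+ (4 libraries), CD45-/EpCAM- (2), CD45+ (5), CD31+ (2) and CD146+ (2). The donor and age of each liver library are not given in the sources used here, so libraries are treated as separate samples and p-values measure the spread between them, which may in part be technical.

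HNF4A is a nuclear receptor that holds the hepatocyte programme in place, and NR5A2 (LRH-1), NR1H4 (FXR) and NR1I3 (CAR) are nuclear receptors that act on bile acid synthesis, bile acid sensing and the handling of foreign compounds. The FOXA factors are winged-helix proteins that open chromatin early in the endoderm, CEBPA is a basic leucine zipper factor of the mature hepatocyte, and CREB3L3 (CREBH) is held in the membrane of the endoplasmic reticulum until it is released to act on lipid and acute-phase genes. HNF4A, FOXA1, FOXA2 and NR5A2 are also made in other epithelia of the gut tube, and CEBPA in myeloid cells and fat.

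Values are normalized counts, which are read counts scaled by the authors so that libraries of different depth can be compared. They are not divided by transcript length, so each gene is compared only with itself across libraries. The depth estimated from the lowest values was between 21300000 and 78100000 reads in 17 libraries and lower in 3 (wild-type piglet 1, S15, 1560000; CD45-/EpCAM+ S13, 800000; CD146+ S22, 454000). The summed counts of 8 hepatocyte marker genes ranged from 1153370 to 2976220 in the liver libraries, whatever the sort, and from 26338 to 78702 in pBTSCs. The sort antigens were matched by the marker lists in part. The leukocyte sum was 13782 to 57780 in CD45+ libraries and 14960 to 68002 in CD45-/EpCAM+ libraries, so the label CD45+ was not matched by more leukocyte transcripts. The endothelial sum was 108920 to 109073 in CD31+ libraries and 47317 to 113262 in CD45+ libraries, and the cholangiocyte sum was 16017 to 57590 in pBTSCs and 2641 to 11602 in liver. Most of the cholangiocyte sum in pBTSCs was SPP1, at 13614 to 51735 normalized counts there and 1113 to 5981 in liver. Over the 5 cholangiocyte genes tested, the median log2 fold change in pBTSCs against CD45-/EpCAM+ cells was -0.24. The cholangiocyte list, which holds EPCAM, was lower in CD45-/EpCAM- libraries (2641 to 4943) than in CD45-/EpCAM+ libraries (6647 to 9057), with no overlap. In these bulk samples, fewer cells of a type and less RNA per cell cannot be told apart. The study's quality list gives RNA integrity for the pBTSCs, except wild-type piglet 1, and for no liver library. Its part in the differences between pBTSCs and liver was not tested.

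All 9 factors were lower in pBTSCs than in liver cells. In each of them, every pBTSC library lay below every one of the 15 liver libraries, which held for 9.21% of the 15576 genes tested. Against CD45-/EpCAM+ liver cells alone the groups were likewise apart for all 9, as they were for 14.1% of genes. In the limma fit, a call needed an adjusted p under 0.05 and a log2 fold change beyond 1 in either direction. By this rule 9 of 9 factors were called lower in pBTSCs against CD45-/EpCAM+ cells, where 10.3% of all genes were called lower, and again 9 of 9 without the 3 libraries of low depth. The median log2 fold change of the 9 was -2.15, beside 0.08 over all genes tested. The factors fell by very different amounts. CREB3L3, NR1H4, FOXA3 and NR1I3 had log2 fold changes of -5.20 to -3.47 and the other 5 of -2.15 to -1.52.

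**Figure D1:**
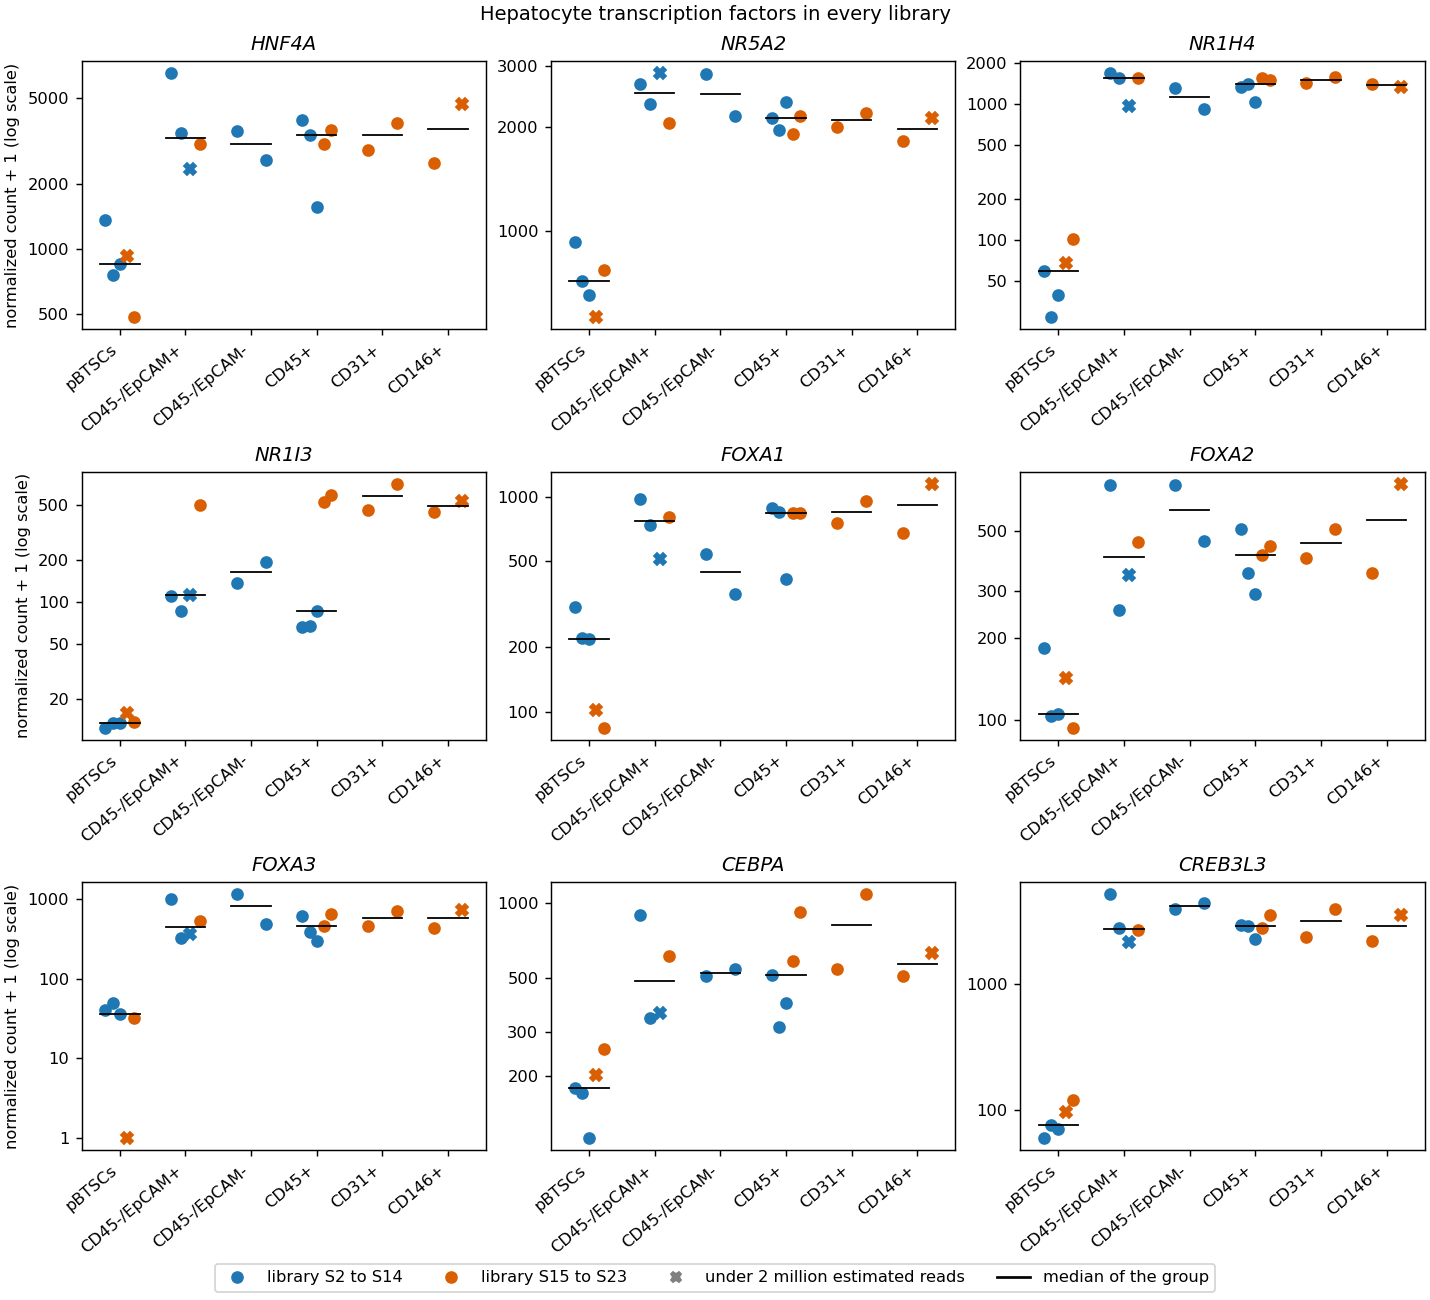
Normalized count + 1 (log scale) of each of the 9 factors in all 20 libraries, grouped by sorted population, with 1 point per library, a line at the group median and crosses for the 3 libraries of low depth. In every panel the 5 pBTSC points sit below the 15 liver points, and in the NR1I3 panel the liver points form separate clouds by library number.

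Among the nuclear receptors, HNF4A measured 1366, 761 and 857 normalized counts in the H2B-GFP libraries S2, S7 and S11 and 929 and 486 in the wild-type libraries S15 and S20. The CD45-/EpCAM+ libraries S4, S9, S13 and S19 had 6468, 3442, 2348 and 3065, and the 15 liver libraries ran from 1557 over a median of 3362 to 6468. The highest pBTSC library thus came close to the lowest liver library, CD45+ S12, without reaching it. The log2 fold change against CD45-/EpCAM+ cells was -2.09 (standard error 0.33, limma adjusted p = 9.3e-05).

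NR5A2, which activates bile acid synthesis genes and is also a factor of the exocrine pancreas, had the smallest standard error of the 9. Its normalized counts were 929, 717 and 655 in S2, S7 and S11 (H2B-GFP) and 564 and 771 in S15 and S20 (wild type). In S4, S9, S13 and S19 it measured 2665, 2330, 2852 and 2046, and over all liver libraries 1817 to 2852 with a median of 2143. No pBTSC library came near the liver range. Its log2 fold change was -1.77 (standard error 0.14, limma adjusted p = 8.8e-08).

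NR1H4, the bile acid receptor, was found at 58.3, 26.0 and 38.2 normalized counts in S2, S7 and S11 and at 66.0 and 101 in S15 and S20. The CD45-/EpCAM+ libraries held 1686, 1562, 964 and 1546, and the liver libraries 919 to 1686 with a median of 1410. Even the highest pBTSC library was far under the lowest liver library. The log2 fold change of NR1H4 was -4.73 (standard error 0.29, limma adjusted p = 5.2e-09).

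NR1I3, which senses foreign compounds, had 11.5, 12.5 and 12.4 normalized counts in S2, S7 and S11, 15.05 in S15 and 12.6 in S20. The value of S15 was under the worth of 3 reads in that shallow library, 37.8 normalized counts, whereas 3 reads were worth 1.93 or less in the other 4. S4, S9, S13 and S19 had 110, 85.6, 112 and 499, and the liver libraries ran from 64.9 over a median of 193 to 710. Liver libraries differed more among themselves in NR1I3 than in any other factor of the set, as set out further on. Over all CD45-/EpCAM+ libraries the log2 fold change was -3.47 (standard error 0.65, limma adjusted p = 4.3e-04).

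Of the FOXA factors, FOXA1 had 306, 220 and 217 normalized counts in S2, S7 and S11 and 100.5 and 83.4 in S15 and S20, against 976, 741, 514 and 801 in S4, S9, S13 and S19. Over all liver libraries it ran from 350 to 1148 with a median of 801. The H2B-GFP piglets were nearer to the lowest liver library, CD45-/EpCAM- S14, than the wild-type piglets were. FOXA1 gave a log2 fold change of -2.15 (standard error 0.35, limma adjusted p = 1.3e-04).

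FOXA2, a factor of the definitive endoderm, measured 183, 102 and 104 normalized counts in S2, S7 and S11 and 141 and 92.6 in S15 and S20. It measured 739, 254, 341 and 455 in S4, S9, S13 and S19 and 254 to 746, with a median of 437, over the liver libraries. The gap between the highest pBTSC library and the lowest liver library was small beside the spread within liver. FOXA2 gave a log2 fold change of -1.77 (standard error 0.31, limma adjusted p = 2.4e-04).

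FOXA3, the member of the family that is prominent in mature liver, separated more widely. Its normalized counts were 39.3, 48.3 and 35.6 in S2, S7 and S11 and 31.6 in S20, and the shallow S15 lists it at 0 with a worth of 37.8 for 3 reads. S4, S9, S13 and S19 had 1019, 324, 360 and 525, and the liver libraries ran from 300.5 over a median of 484 to 1158. The 0 of S15 therefore cannot be told from the values of the other piglets. FOXA3 gave a log2 fold change of -4.73 (standard error 0.84, limma adjusted p = 2.7e-04), which rests in part on that 0. Without the 3 libraries of low depth it was -3.83 (limma adjusted p = 5.8e-06).

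CEBPA had 179, 169 and 111 normalized counts in S2, S7 and S11 and 201 and 257 in S15 and S20. In S4, S9, S13 and S19 it had 898, 341, 360 and 611, and in the liver libraries 315 to 1087 with a median of 540. This was the smallest difference of the set against CD45-/EpCAM+ cells, with S20 under the lowest liver library, CD45+ S8. CEBPA gave a log2 fold change of -1.52 (standard error 0.34, limma adjusted p = 0.00187).

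CREB3L3 showed the largest difference of the set in that comparison. Its normalized counts were 58.9, 75.5 and 69.5 in S2, S7 and S11, 95.6 and 120 in S15 and S20, and 5158, 2786, 2153 and 2699 in S4, S9, S13 and S19. Over all liver libraries it ran from 2153 over a median of 2879 to 5158. The pBTSC and liver values were an order of magnitude apart at their closest. CREB3L3 gave a log2 fold change of -5.20 (standard error 0.25, limma adjusted p = 4.2e-10).

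**Figure D2:**
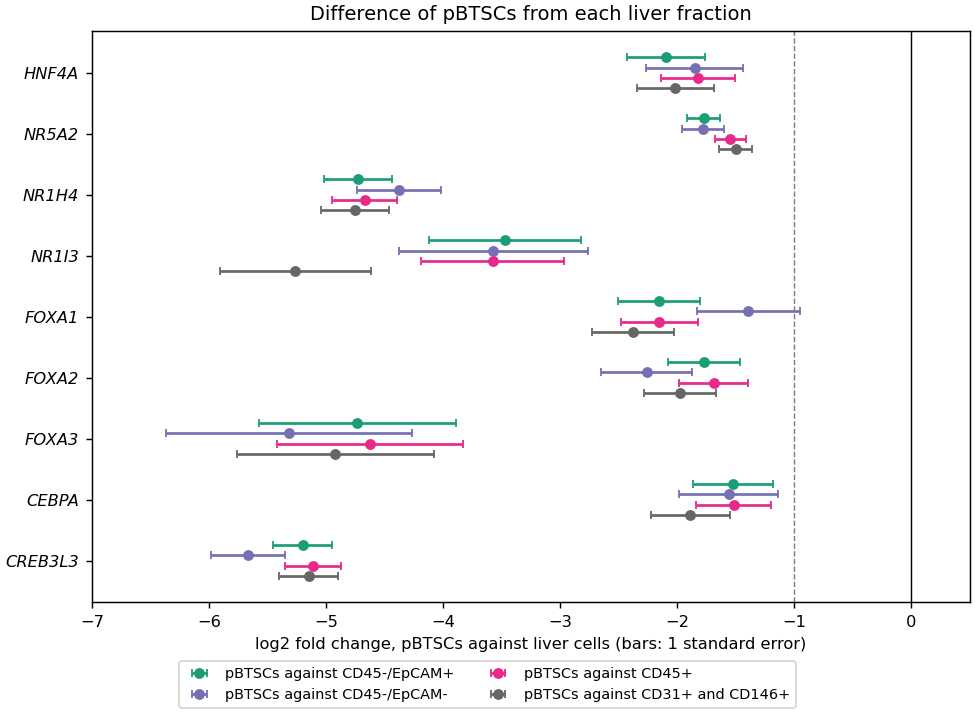
Log2 fold change of each factor in pBTSCs against 4 liver fractions from 1 limma fit, with bars of 1 standard error; negative values are lower in pBTSCs and the dashed line marks -1. All 36 points lie left of the dashed line, from -1.39 for FOXA1 against CD45-/EpCAM- cells to -5.67 for CREB3L3 against the same cells.

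The pattern was also read as a ratio to HNF4A within each library, which does not change with library scaling. FOXA1 amounted to 10.8% to 28.9% of the HNF4A count in pBTSCs and to 13.6% to 27.5% in liver libraries, and these ranges overlap. So did those of NR5A2, at 60.7% to 159% in pBTSCs and 41.2% to 152% in liver. CREB3L3 was 4.32% to 24.7% of the HNF4A count in pBTSCs and 74.1% to 172% in liver, with no overlap. NR1H4 was 3.41% to 20.7% in pBTSCs and 26.1% to 66.0% in liver, again with no overlap. FOXA3, at 0% to 6.51% in pBTSCs and 9.40% to 33.0% in liver, was the third factor without overlap, while FOXA2, CEBPA and NR1I3 overlapped. The share of all genes without overlap in this ratio was not computed. In S15 both FOXA3 and NR1I3 were under the worth of 3 reads, 37.8 normalized counts. FOXA2 alone had all 5 pBTSC libraries inside the liver range. NR1I3 had 4 of 5 below it, FOXA1 had S15 below and S7 above it, and CEBPA and NR5A2 each had S20 above it.

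Set against the summed hepatocyte markers, 5 of the 9 factors had a higher ratio in every pBTSC library than in any liver library. These were HNF4A, FOXA1, FOXA2, CEBPA and NR5A2. The sum itself was 26338 to 78702 in pBTSCs and 1153370 to 2976220 in liver. Any gene that fell less than the markers therefore gains by this ratio, and the share of all genes that do was not computed. HNF4A came to 6169 to 48028 normalized counts per 1000000 hepatocyte marker counts in pBTSCs and to 1015 to 2437 in liver. FOXA1 came to 1059 to 10776 in pBTSCs and 138 to 547 in liver. By this sum CREB3L3 stayed nearest to the markers, with 1524 to 2640 in pBTSCs and 1009 to 1967 in liver, ranges that overlap. NR1H4 overlapped as well, at 869 to 2049 in pBTSCs and 363 to 924 in liver, as did NR1I3, at 160 to 472 and 39.9 to 253, and FOXA3, at 0 in S15 to 1617 and 170 to 482. APOA1 alone made up 23518 of 28436, 27035 of 29864 and 23582 of 26338 marker counts in S2, S7 and S11. In every liver library ALB was the largest of these markers, so the sum stands largely for different genes there. Whether the overlap of CREB3L3 holds without APOA1 was not tested.

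The other liver fractions gave the same calls for the factors, in comparisons that share the 5 pBTSC libraries and so are not independent. Against CD45-/EpCAM- cells 9 of 9 were called lower in pBTSCs (16.6% of all genes), with log2 fold changes from -5.67 for CREB3L3 to -1.39 for FOXA1 (standard error 0.44, limma adjusted p = 0.0146). Against CD45+ cells 9 of 9 were called lower (9.54% of all genes), from -5.11 for CREB3L3 to -1.52 for CEBPA. Against CD31+ and CD146+ cells together 9 of 9 were called lower (8.75% of all genes), from -5.26 for NR1I3 to -1.50 for NR5A2. The FOXA1 call against CD45-/EpCAM- cells was kept in 28 of 32 other settings. It was lost, among others, without library S5, where the log2 fold change was -1.08 and S14 stood alone for its group.

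The numbers in the library names divide the series in a way that touches NR1I3, so the comparison was repeated within S2 to S14 and within S15 to S23. Among pBTSCs the division is that of the piglet lines, H2B-GFP against wild type. Against CD45+ cells 9 of 9 factors were called lower within S2 to S14 (9.58% of all genes) and 9 of 9 within S15 to S23 (6.68%). Against CD45-/EpCAM+ cells the count was 9 of 9 within S2 to S14 (10.8%) and 7 of 9 within S15 to S23 (4.69%), where S19 is the only CD45-/EpCAM+ library and is assumed to vary like the other groups, so that this count is no repeat over replicates. The factors not called there were FOXA2 at -1.98 (standard error 0.61, limma adjusted p = 0.0646) and CEBPA at -1.42 (standard error 0.55, limma adjusted p = 0.166).

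Of 25 other liver transcription factors with a row, 14 were called lower in pBTSCs than in CD45-/EpCAM+ cells, 1 was called higher and 10 were not called, with a median log2 fold change of -1.10. Among those with the lowest adjusted p were ATF5, a stress-responsive leucine zipper factor abundant in liver (-5.54, standard error 0.39, limma adjusted p = 2.4e-08), and MLXIPL, the carbohydrate response factor ChREBP (-4.49, standard error 0.40, limma adjusted p = 2.3e-07). The factor called higher was TBX3, a T-box factor of the early liver bud (1.74, standard error 0.40, limma adjusted p = 0.00235), named after its value was seen. Of 9 coregulators through which such factors act, limma called 0 against CD45-/EpCAM+ cells, with a median of 0.25. Their values ran from -0.86 for PPARGC1A to 0.64 for NCOA3. An unadjusted p under 0.05 was found for 5 of them, beside 7382 of the 15576 genes tested. Against CD45-/EpCAM- cells 4 of the 9 were called higher (3114 of all genes), and against CD31+ and CD146+ cells 1 was called lower (1363 of all genes). RXRA, the common partner of NR1H4 and NR1I3 and likewise named after its value was seen, was called lower against CD45-/EpCAM+ cells, at -1.10 (standard error 0.17, limma adjusted p = 6.7e-05).

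Textbook target genes of the 9 factors were mostly lower in pBTSCs too, over a wide range. Of 29 with a row, 27 passed the filter, 21 of them were called lower in pBTSCs than in CD45-/EpCAM+ cells, 0 higher, and the median log2 fold change was -7.27. Of the 6 not called, the high-density lipoprotein receptor SCARB1, named after its value was seen, was nearest to 0 at -0.10. ALB, TTR, APOA1, APOB and SERPINA1 are on this list and among the hepatocyte markers as well. The lowest adjusted p-values belonged to transporters of the bile canaliculus: the phospholipid transporter ABCB4 at -7.89 (standard error 0.63, limma adjusted p = 8.1e-08) and the sterol transporters ABCG5 at -7.43 and ABCG8 at -7.27. ABCB4, for instance, had 2.50, 2.22 and 3.18 normalized counts in S2, S7 and S11 and 26.9 in S20, and S15 lists it at 0. With 3 reads worth 37.8 normalized counts in S15, that 0 cannot be told from the value of S20. The S4, S9, S13 and S19 libraries held 1555, 947, 968 and 683 normalized counts of ABCB4.

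Markers of cell types also differed between pBTSCs and CD45-/EpCAM+ cells, in both directions. All 8 hepatocyte markers were called lower in pBTSCs than in CD45-/EpCAM+ cells, led by TF, APOB and SERPINA1 in order of adjusted p. Of 6 mesenchymal markers 5 were higher (COL1A1, COL3A1 and DES led) and 1 was not called, and their sum was 367366 to 1375520 in pBTSCs against 33214 to 173284 in liver. Of the markers tested, 1 of 5 cholangiocyte genes was higher (SPP1) and 1 lower (CFTR), 2 of 5 leukocyte genes were lower, 2 of 6 endothelial genes were higher and 2 lower, 2 of 4 erythroid genes were higher, and 1 of 6 gut and pancreas genes was higher (MUC5AC). The part of these cell mixtures in the lower values of the 9 factors was not tested.

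**Figure D3:**
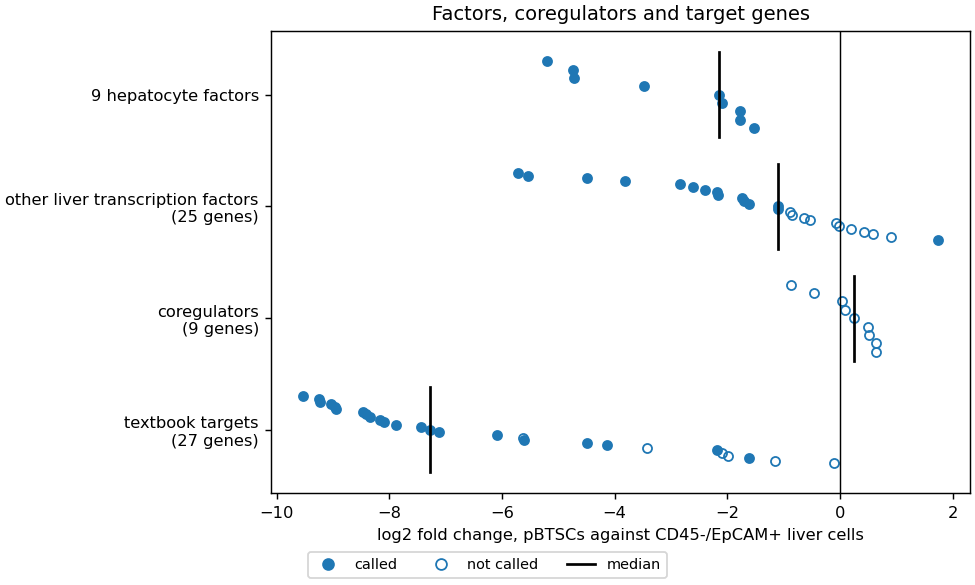
Log2 fold change in pBTSCs against CD45-/EpCAM+ liver cells, 1 point per gene, filled where called, with a line at each list's median. The 9 factors are all filled and left of 0 with a median of -2.15, the coregulators are open and centred at 0.25, and the target genes reach furthest left with a median of -7.27.

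Among the liver fractions, CD45-/EpCAM- and CD45+ cells were each compared with CD45-/EpCAM+ cells. CD31+ and CD146+ cells were not compared with another liver fraction. Of the 9, limma called 0 between CD45-/EpCAM- and CD45-/EpCAM+ cells, with 0 at an unadjusted p under 0.05 and 2.80% of all genes called. Their log2 fold changes there ran from -0.76 for FOXA1 to 0.58 for FOXA3, with standard errors of 0.18 to 1.08. Of 5 cholangiocyte markers limma called 1 lower there, with all 5 at an unadjusted p under 0.05, and of 4 erythroid markers it called 3 higher. Between CD45+ and CD45-/EpCAM+ cells limma also called 0 of the 9, with 0 at an unadjusted p under 0.05. The range was from -0.27 for HNF4A to 0.10 for NR1I3. In that comparison 0% of all genes were called, and 214 of them had an unadjusted p under 0.05. The CD45+ sort, which should hold blood cells, thus carried HNF4A at 1557 to 3927 normalized counts, beside 2348 to 6468 in CD45-/EpCAM+ cells, and its hepatocyte marker sum of 1153370 to 2735210 overlapped that of the CD45-/EpCAM+ libraries (1503280 to 2762240). The part of hepatocyte RNA in each sort was not tested.

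Within pBTSCs the 3 H2B-GFP piglets were compared with the 2 wild-type piglets, in a fit of these 5 libraries alone. The factors split in both directions. FOXA1 was called higher in the H2B-GFP piglets (217 to 306 against 83.4 to 100.5 normalized counts, log2 fold change 1.41, standard error 0.24, limma adjusted p = 0.0481). None of the other 8 was called, and 1.77% of all genes were. The call was close to the threshold and was lost in 12 of 14 other settings, with adjusted p between 0.0451 and 0.169. The lines did not overlap in 6 of the 9 factors, of which 2 lay above and 4 below the wild type, beside 37.9% of all genes without overlap in either direction. Among these, FOXA3 and NR1I3 had S15 values under the worth of 3 reads. Their S20 values lay just outside the H2B-GFP range, at 31.6 beside 35.6 to 48.3 for FOXA3 and 12.6 beside 11.5 to 12.5 for NR1I3. NR1H4 was at 26.0 to 58.3 against 66.0 to 101, a log2 difference of -1.06 (standard error 0.44, limma adjusted p = 0.270). CREB3L3 was at 58.9 to 75.5 against 95.6 to 120, a log2 difference of -0.66 (standard error 0.28, limma adjusted p = 0.273). FOXA3 gave 2.87 (standard error 1.36, limma adjusted p = 0.316), and 5.38 (limma adjusted p = 0.0221) when S20 was left out and S15, listed at 0, stood alone for its line and was assumed to vary like the others.

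The lines also differed in hepatocyte transcripts. Of 8 hepatocyte markers 6 were called lower in the H2B-GFP piglets, and the markers summed to 26338 to 29864 there and to 58327 to 78702 in the wild-type piglets. ALB, named after its value was seen, had 376, 287 and 288 normalized counts in S2, S7 and S11 and 19832 and 25087 in S15 and S20. Of 23 textbook targets 9 were called lower in the H2B-GFP piglets, whereas of 24 other liver transcription factors limma called 0, with 7 at an unadjusted p under 0.05. FOXA1 was thus lower in the piglets with more hepatocyte transcripts, while NR1H4 and CREB3L3 values were higher in them. Other cell types moved with the line as well. The mesenchymal markers summed to 367366 to 811169 in the H2B-GFP and 1358060 to 1375520 in the wild-type piglets, with 5 of 6 genes at an unadjusted p under 0.05 and 0 called by limma. The leukocyte markers summed to 3568 to 4688 and 7602 to 8226, with CSF1R, named after its value was seen, called lower in the H2B-GFP piglets. Of 5 cholangiocyte markers 3 had an unadjusted p under 0.05 and limma called 0. The wild-type piglets also yielded fewer cells, and the study's quality list gives higher RNA integrity for wild-type piglet 2 than for the H2B-GFP piglets and none for wild-type piglet 1. These cannot be told apart from the line, and their part in the FOXA1 difference was not tested.

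NR1I3 divided the liver libraries by the number in the library name. The labels do not say what that number stands for, and the division was taken from an earlier result of these data on another gene, AFP. In the 8 liver libraries S3 to S14, NR1I3 measured 64.9 to 193 normalized counts with a median of 97.9. In the 7 libraries S16 to S23 it measured 445 to 710 with a median of 528. The groups did not overlap, as was so in this direction for 1 of the 9 factors and 7.06% of all genes. With the sorted group as a covariate, the log2 fold change was 2.69 (standard error 0.23, limma adjusted p = 7.4e-05), and NR1I3 was called in each of 25 other settings, with values from 2.56 to 2.95. It was the only factor called, beside 3.78% of all genes. Since CD45-/EpCAM- libraries occur only at low numbers and CD31+ and CD146+ libraries only at high ones, this estimate rests on the CD45+ and CD45-/EpCAM+ libraries. The numbers also form 5 runs that each open with a pBTSC library, and the labels do not say whether the liver libraries of a run share an animal, in which case this p-value would be too small. With the runs as a random block, a setting chosen after seeing the data, NR1I3 stood at 2.75 (limma adjusted p = 2.1e-04, estimated within-run correlation 0.41 over all genes). Over the means of the 5 runs, 2 against 3, the log2 difference was 2.47 (exact two-sided permutation p = 0.1, the smallest this design allows). The 3 CD45+ libraries S3, S8 and S12 had 64.9, 65.8 and 85.1 normalized counts of NR1I3, and S18 and S23 had 528 and 589.

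The other 8 factors did not divide in this way. Their log2 fold changes between S16 to S23 and S3 to S14 ran from -0.18 for NR5A2 (standard error 0.13) to 0.67 for CEBPA (standard error 0.33, limma adjusted p = 0.231). HNF4A, at 2507 to 4667 in the higher and 1557 to 6468 in the lower numbers, gave 0.05 (standard error 0.36). NR1I3 was therefore 11.5% to 18.5% of the HNF4A count in S16 to S23 and 1.65% to 7.52% in S3 to S14. Per 1000000 hepatocyte marker counts it came to 180 to 253 in S16 to S23 and 39.9 to 76.3 in S3 to S14. The marker sums themselves overlapped, at 2153160 to 2976220 in the higher and 1153370 to 2762240 in the lower numbers.

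**Figure D4:**
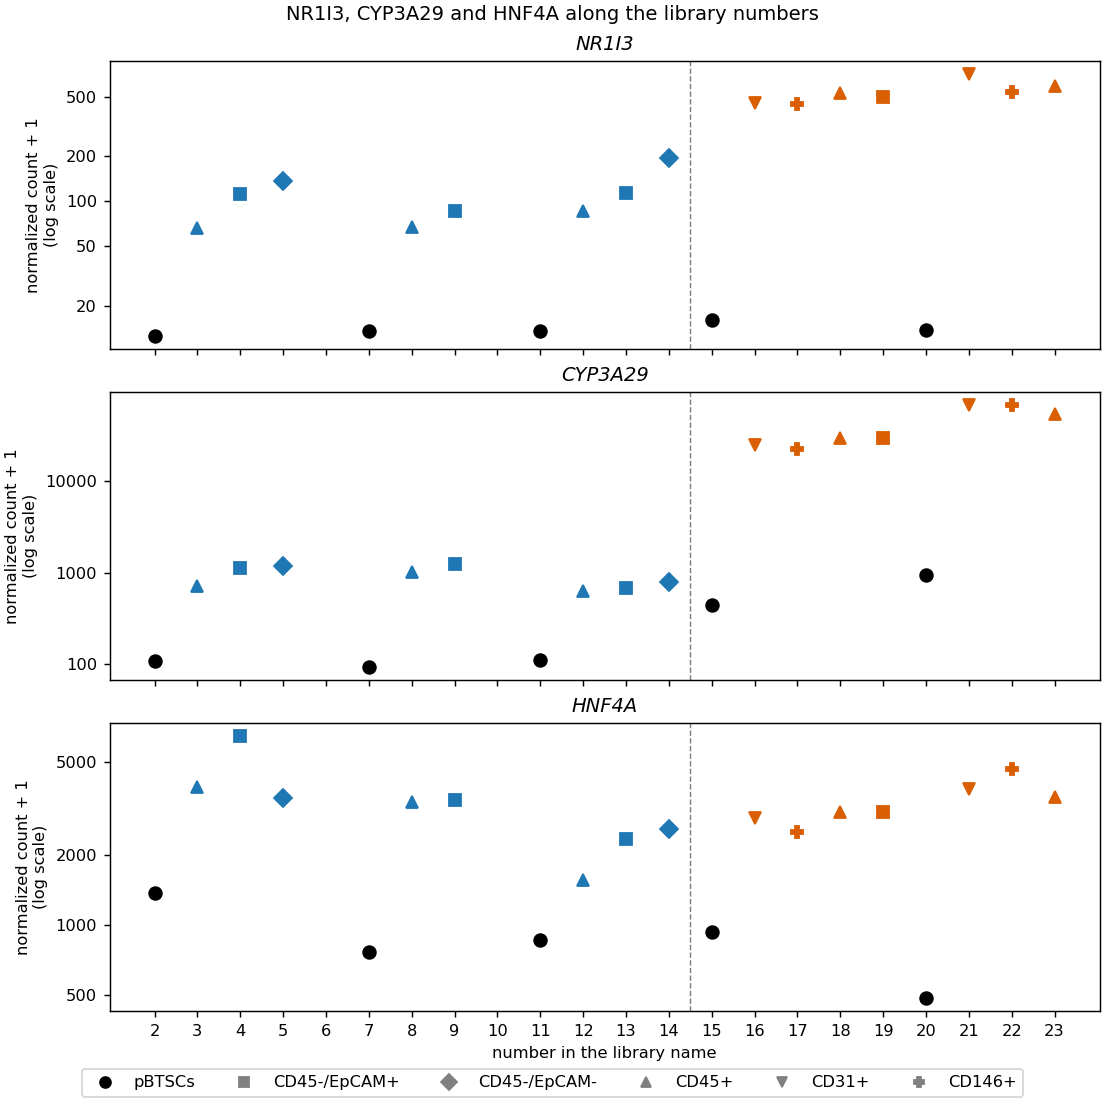
Normalized count + 1 (log scale) of NR1I3, CYP3A29 and HNF4A in each library against the number in its name, with pBTSCs in black, liver libraries coloured on each side of the dashed line and symbols for the sorted groups. NR1I3 and CYP3A29 step up between the liver libraries left and right of the line, NR1I3 from 64.9 to 193 up to 445 to 710 normalized counts, while HNF4A overlaps across it.

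Of the 27 textbook targets tested, 4 were called higher in S16 to S23 and 1 lower, and these were named after their values were seen. CYP3A29, a drug-metabolising cytochrome of the pig and a textbook type of NR1I3 target, is 1 of several similar CYP3A genes between which reads can be split. It was at 623 to 1241 normalized counts in S3 to S14 and at 22897 to 68618 in S16 to S23, a log2 fold change of 5.41 (standard error 0.41, limma adjusted p = 3.3e-05). CYP7A1, the rate-limiting enzyme of bile acid synthesis, rose by 3.82 (standard error 0.60, limma adjusted p = 0.00423). The canalicular exporter ABCC2 and the thyroid hormone carrier TTR were higher by 1.34 and 1.31, and the bile acid exporter subunit SLC51B was lower, at -1.76. Of the 25 other factors, PPARA (1.26) and the thyroid hormone receptor THRB (1.44) were called higher. Erythroid markers moved with the number as well, with 3 of 4 called lower and sums of 1436 to 2550 in S16 to S23 against 12070 to 860002 in S3 to S14. The part of these in the NR1I3 result was not tested.

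The size of the NR1I3 difference between pBTSCs and CD45+ cells accordingly depended on the numbers. Among pBTSCs the numbers cannot be told apart from the piglet line. The difference was -2.46 (standard error 0.28) within S2 to S14 and -5.24 (standard error 0.34) within S15 to S23. The change from the lower to the higher numbers was -2.78 (standard error 0.44, limma adjusted p = 0.00754), and NR1I3 was the only factor of the 9 called for it, beside 0.661% of all genes. The call was kept in 28 of 30 other settings and lost without CD45+ library S18 (adjusted p = 0.0583) or S23 (adjusted p = 0.0620), at -2.86 and -2.70. FOXA1 gave -1.72 (standard error 0.51, limma adjusted p = 0.259) and FOXA3 -3.27 (standard error 1.40, limma adjusted p = 0.583).

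Within liver, how far the factors ran together was described over the 13 liver libraries of full depth, with Pearson's r on log2(normalized count + 1) and no test, since libraries share donors and sorts in an unknown way. The 28 pairs of factors without NR1I3 had r from -0.18 to 0.96 with a median of 0.54. The 8 pairs with NR1I3 had r from -0.42, with NR5A2, to 0.63, with CEBPA, and a median of 0.11. These pooled values cross the step of NR1I3 between the library numbers. Within the 6 libraries of full depth among S16 to S23, NR1I3 had r from 0.75, with NR1H4, to 0.98, with CREB3L3. Pairs without NR1I3 ran from 0.58 to 0.99 there. Within the 7 among S3 to S14, NR1I3 had r from -0.65, with FOXA1, to 0.70, with CREB3L3, and the other pairs from -0.04 to 0.98. The 6 libraries fall in 2 of the runs of numbers, whose part in these values was not tested.

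Over the 17 libraries of full depth, pBTSCs included, the named genes most like each factor were read in the same way. These correlations share the gap between pBTSCs and liver, so high values are common. Genes near to HNF4A were CAMSAP3 (r = 0.982) and EPB41L5 (0.970). FOXA1 ran closest with HNF4A itself (0.942), and EPB41L5 (0.938) was also near to it. FOXA2 was nearest to C1orf210 (0.971), SLC22A18 (0.965) and FOXA3 (0.964), and FOXA3 to GSTK1 (0.990), FGFRL1 (0.987) and HSD17B2 (0.987).

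CREB3L3 was nearest to the glycerol channel AQP9 (0.994), GCM1 (0.993) and the glucagon receptor GCGR (0.993), and NR1H4 to KYNU (0.993), BBOX1 (0.992) and CIDEB (0.992). NR5A2 was nearest to HSD17B14 (0.984), the glucokinase regulator GCKR (0.982) and SLC39A5 (0.981), and CEBPA to RETSAT (0.956), SLC46A3 (0.954) and ACAD11 (0.949). NR1I3 was nearest to IGFALS, which binds insulin-like growth factors in blood (0.988), HSD17B6 (0.987) and SMPDL3B (0.985). No gene named here was shared between the lists of different factors, NR1I3 included, save EPB41L5 for HNF4A and FOXA1.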

How the data were processed

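RNA of 5 pBTSC and 15 sorted liver preparations was sequenced from poly(A) TruSeq stranded libraries. The authors deposited their values as normalized counts (a signal on a linear scale) in a single table, and the submitters' processing notes name STAR, Salmon and DESeq2 without versions. The genome build and the way the scaling was made are not given in the sources used here, so no coordinates are printed, and promoter and protein sequences were not analysed here. How much 1 read is worth was estimated per library from the lowest values. Between 66.1% and 87.6% of these lay within 0.05 of a whole read, so no count test was run. Estimated depth was 21300000 to 78100000 reads in 17 libraries and under 2000000 in 3, which limits the precision of low genes. A floor of 3 reads covers counting error only.

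After 1 was added, deposited values were taken to log2 and compared by limma 3.58.1, run in R 4.3.3 (trend, Benjamini-Hochberg adjustment over all genes tested) on genes that reached 10 normalized counts in 2 or more libraries, in 1 fit of the 6 groups unless another fit is named. The added 1 lowers the fold changes of low genes. A 0 in a shallow library can instead enlarge them. FOXA3 against CD45-/EpCAM+ cells stood at -4.73, and at -3.83 without the shallow libraries. Groups came from the labels. The step was tested on simulated data. No 2 libraries of a group agreed within counting noise (ratio of 1.32 or more), which cannot tell repeat preparations of 1 sample apart. Tables and figures used Python 3.11.15, numpy 2.4.6, pandas 2.3.3 and matplotlib 3.10.9.

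All 9 factors were named, with the 3 called genes of lowest adjusted p against CD45-/EpCAM+ cells in each other list and the 3 genes most correlated with each factor. Some genes that fall under this rule are not reported here. Other names were chosen after their values were seen. The factors and lists were chosen with earlier results of these data known. Alternatives were pseudocounts of 0.1 and 10, other scalings, filters, weights and fits, omission of the shallow libraries, each library left out in turn and, added after seeing the data, runs of library numbers as a block.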

Additional observations from a re-analysis of the deposited data

Results flagged for a closer look

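Within groups of 4 or 5 libraries, the lowest or highest library of each factor was compared with its neighbour, as the gap divided by the whole range on the log2 scale. Of 27 groups looked at, 5 had a gap above Dixon's critical value, where chance gives about 1 in 20. Among CD45+ libraries S12 was low in HNF4A (1557 normalized counts, ratio 0.727) and in FOXA1 (414, ratio 0.934). Among pBTSCs, wild-type piglet 1 was low in FOXA3 (listed at 0 in a shallow library, ratio 0.894). Among CD45-/EpCAM+ libraries the shallow S13 was low in NR1H4 (964, ratio 0.846) and S19 was high in NR1I3 (499, ratio 0.847), S19 being the only library of that group among S16 to S23. The difference of NR1I3 between pBTSCs and CD45+ cells differed between S15 to S23 and S2 to S14 by -2.78 on the log2 scale, by limma's test of the difference itself (adjusted p = 0.00754).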

How the results depend on the processing

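Against CD45-/EpCAM+, CD45+ and CD31+ with CD146+ cells, the lower call of the 9 factors in pBTSCs held in all 864 refitted values, and against CD45-/EpCAM- cells in 284 of 288. The 4 lost were of FOXA1: -0.92 after rescaling to equal totals (adjusted p = 0.0801), -1.10 with limma arrayWeights (0.0927), -1.39 with a fit of just those groups (0.0507) and -1.08 without S5. Rescaling to equal totals moved the median of all genes in the 4 pBTSC comparisons by 0.25 to 0.48, and upper-quartile scaling by 0.08 to 0.10. The count of factors called between piglet lines went from 1 to 0 with a pseudocount of 0.1, rescaling to equal totals, no filter, the filter of 50 normalized counts in 4 libraries, arrayWeights, no trend and without the shallow libraries, and was 0 to 1 with 1 library left out. The count for the difference between the library numbers was 2 with arrayWeights, where FOXA1 joined (-1.59, adjusted p = 0.00945), and 0 to 2 with 1 library left out, FOXA3 joining without S20. Signs turned only in values not called. Between S16 to S23 and S3 to S14, HNF4A was -0.16 with arrayWeights, -0.054 without the shallow libraries or without S13 alone, -0.21 without S12 and -0.066 without S23 (range -0.21 to 0.26 with 1 library left out), and CREB3L3 was -0.056, -0.028, -0.030 and -0.084 in the same order (range -0.084 to 0.23). Between piglet lines, NR5A2 was -0.023 without S15 (range -0.023 to 0.43), and FOXA2 was -0.15 without S2 and -0.17 without S20 (range -0.17 to 0.43). For the difference between the numbers, NR5A2 was 0.10 without S15 or the shallow libraries and 0.023 without S2 (range -0.35 to 0.10), and CEBPA was 0.055 without S23 (range -0.60 to 0.055). The cause of these changes was not tested. Depth limits FOXA3 and NR1I3 in wild-type piglet 1. Libraries were not paired, because the labels carry no replicate numbers shared between groups. They also do not say whether libraries with neighbouring numbers share an animal. Runs of consecutive library numbers as a random block, added after seeing the data, changed no count of factors called (within-run correlations of 0.19 to 0.41).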
